A study of Caenorhabditis elegans with 16 samples.

Results

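The insulin-like peptide genes of *Caenorhabditis elegans* and the genes of the DAF-2 to DAF-16 signalling pathway were followed across 4 feeding groups. Members were chosen by gene name: every gene named ins- followed by a number, daf-28, and the 12 pathway genes daf-2, ist-1, age-1, aap-1, pdk-1, akt-1, akt-2, sgk-1, daf-18, daf-16, ftt-2 and par-5. This gave 52 of the 47029 genes in the count table, of which 40 encode insulin-like peptides. All 12 pathway genes and 25 peptide genes had enough reads to be tested, and 15 peptide genes did not.

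The worms were SS104 animals with the glp-4(bn2) allele, which is temperature-sensitive, so every group, the control included, shares this mutation and the shift from 15 °C to 24 °C in larval life that makes the adults sterile. They fed on *Escherichia coli* OP50 on Defined Medium plates and were moved at the L4 stage to lawns left untreated (control) or overlaid with Curcumin Phytosome (a lipid complex of the turmeric compound) at 5 mg/mL, with Sulforaphane (a broccoli isothiocyanate) at 0.625 mg/mL, or with both. Whole adults were collected on day 3 and their polyA RNA was sequenced, with 4 replicates described as independent in each group and 14315538 to 19964755 counted reads per library. No vehicle is named for the untreated lawns, so the effect of a carrier and that of a compound cannot be told apart.

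Insulin-like peptides are short secreted ligands, made mainly by neurons and the intestine, that bind the insulin and IGF receptor homologue DAF-2; some activate it and some block it. The active receptor signals through the PI3-kinase AGE-1 and the kinases PDK-1, AKT-1, AKT-2 and SGK-1. Of these, AKT-1 and AKT-2 keep the FOXO transcription factor DAF-16 out of the nucleus. When signalling is low, DAF-16 enters the nucleus and changes the expression of stress, metabolic and immune genes, and worms with weak DAF-2 live longer; in larvae the same pathway controls entry into the dauer stage. In whole-worm RNA, fewer cells of a type and less RNA per cell cannot be told apart.

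Levels were first compared between genes on a per-length scale, as FPKM, which divides the reads of a gene by its length and the depth of the library. In untreated worms ins-7, which encodes an activating ligand, was by far the most abundant peptide transcript, with a level of 200 ± 12 FPKM (SD, n = 4). The next in order were ins-27 at 24.5 ± 3.13, ins-19 at 22.1 ± 3.09, ins-17 at 20.9 ± 2.60 and ins-6 at 17.2 ± 2.20 FPKM (SD, n = 4). Below them came ins-4 at 13 ± 2.71, ins-10 at 11.4 ± 1.55 and daf-28 at 10.4 ± 0.828 FPKM (SD, n = 4). Each neighbouring pair from ins-27 to daf-28 differed by less than the sum of their SDs. The other 17 tested peptide genes ranged down to ins-33 at 0.598 ± 0.530 FPKM (SD, n = 4).

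The pathway genes were more abundant than most of the ligands. The 14-3-3 genes par-5 and ftt-2, whose proteins hold phosphorylated DAF-16 in the cytoplasm, led with 405 ± 13.8 and 311 ± 30.8 FPKM in the control group (SD, n = 4). The transcription factor gene daf-16 stood at 78.7 ± 6.75 FPKM. Among the kinases akt-1 had 52.6 ± 7.39, sgk-1 50.2 ± 2.78, akt-2 34 ± 5.60 and pdk-1 7.26 ± 0.838 FPKM in the control group (SD, n = 4), so akt-1 and sgk-1 did not differ beyond their spread. The receptor gene daf-2 had 13 ± 0.620 FPKM, the PI3-kinase adaptor gene aap-1 8.91 ± 0.708, age-1 5.55 ± 0.557 and ist-1, which encodes an insulin receptor substrate homologue, 3.51 ± 0.355 FPKM (SD, n = 4).

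**Figure D1:**
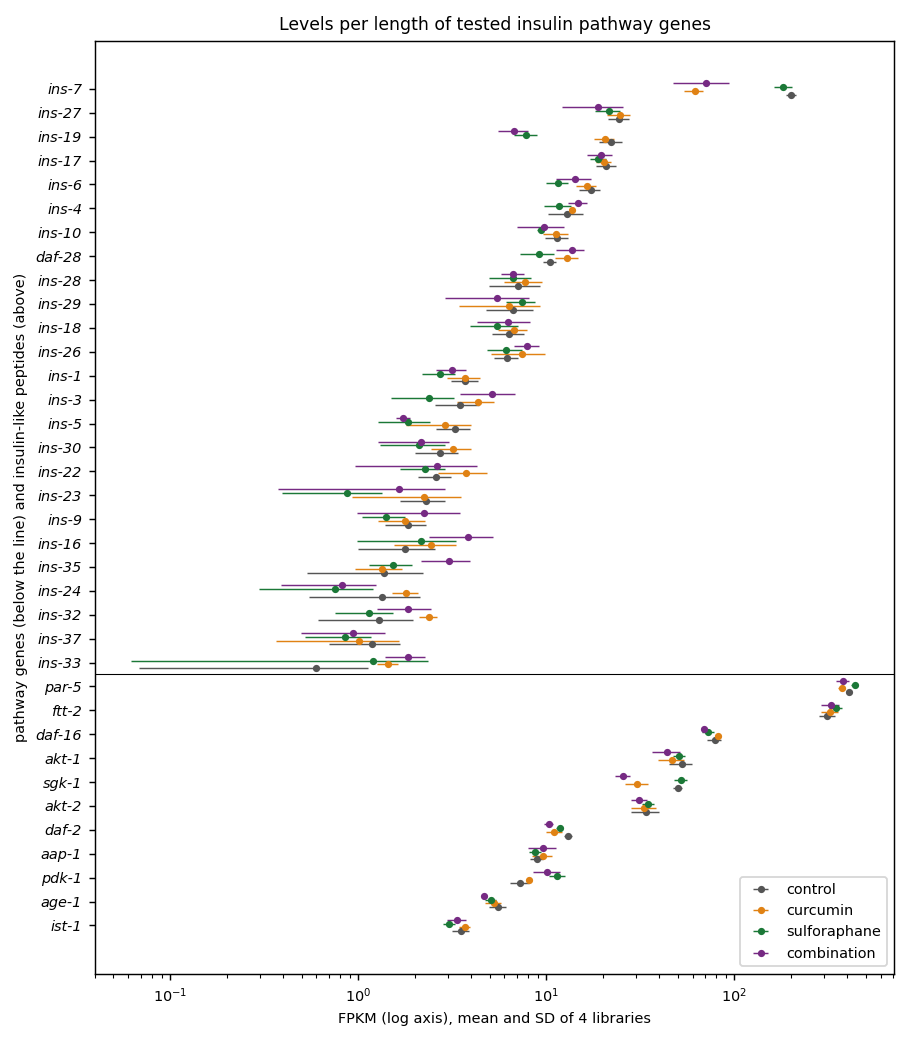
FPKM on a log axis (mean and SD of 4 libraries) for tested genes in the control, curcumin, sulforaphane and combination groups, with insulin-like peptides above the line and pathway genes below. The level of ins-7 was near 200 FPKM in the control group, 61.5 with curcumin, 182 with sulforaphane and 70.6 when both were given, while most other genes kept close levels in all groups.

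The 15 peptide genes that were not tested were ins-2, ins-8, ins-11, ins-12, ins-13, ins-14, ins-15, ins-20, ins-21, ins-25, ins-31, ins-34, ins-36, ins-38 and ins-39. No library had more than 17 reads for any of them. Across all 16 libraries, ins-13 and ins-38 had 0 reads, which allows up to 3 reads by counting error, and the totals of the rest ran from 4 (ins-39) to 120 (ins-20).

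Changes were then tested gene by gene over all 14328 genes with enough reads, with edgeR's quasi-likelihood test, and a gene was called at a Benjamini-Hochberg adjusted p under 0.05. In this way 12 of the 37 tested members were called in at least 1 of 7 comparisons, 6 of them peptide genes and 6 pathway genes. The other 25 were called in none. No share of all tested genes is given for this pooled count, so it only lists the members and is not read as a result about them. Curcumin against control called 3 members, all lower (ins-7, sgk-1 and daf-2), which is 8.11% of those tested against 14.6% of all tested genes (6.87% higher and 7.71% lower). Sulforaphane against control also called 3 members, pdk-1 higher and ins-19 and ins-6 lower, again 8.11% against a background of 6.71% (4.33% higher and 2.37% lower). The combination against control called 8 members, pdk-1 higher and ins-7, ins-19, ins-5, sgk-1, daf-2, age-1 and daf-16 lower, which is 21.6% against 23.1% of all genes (12.1% higher and 11% lower). Taken apart, 1, 2 and 3 of the 25 peptide genes were called with curcumin, sulforaphane and the combination (4%, 8% and 12%), and 2, 1 and 5 of the 12 pathway genes (16.7%, 8.33% and 41.7%). The 5 pathway genes called with the combination include age-1 and daf-16, whose calls were lost under several alternatives given with each gene.

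Between the fed groups, the combination against curcumin called 2 members, daf-16 and ins-19, both lower, which is 5.41% against 7.32% of all genes (4.65% higher and 2.67% lower). The combination against sulforaphane called 5, with daf-28 and ins-3 higher and ins-7, sgk-1 and par-5 lower, which is 13.5% against 18.8% (9.53% higher and 9.25% lower). Curcumin against sulforaphane called 8, with daf-28, ins-19, ins-3 and ins-6 higher and ins-7, par-5, pdk-1 and sgk-1 lower, which is 21.6% against 18.1% (7.62% higher and 10.5% lower). These comparisons share libraries with each other and with the comparisons with control, so their calls are not independent.

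**Figure D2:**
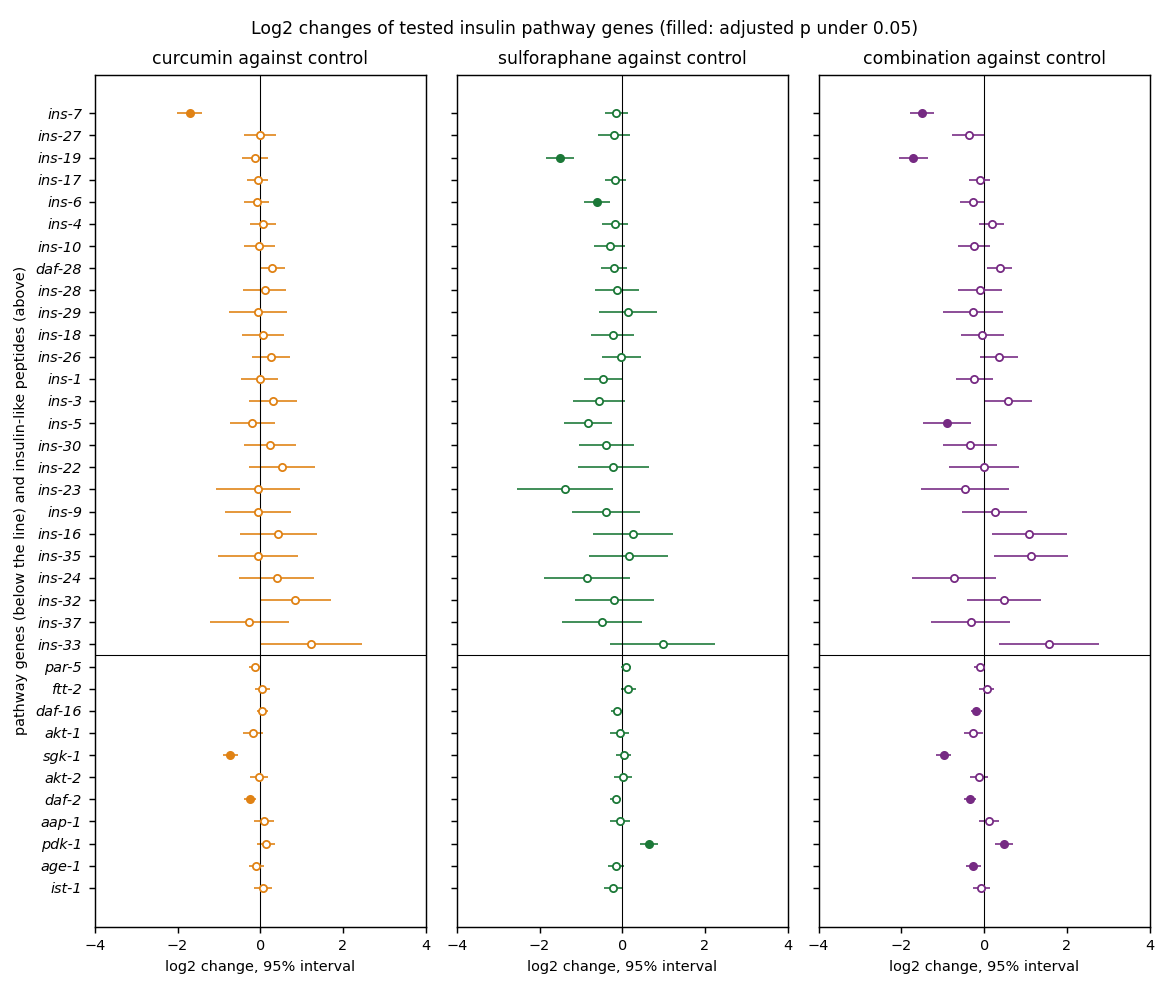
Log2 change (dots) and its 95% interval (lines) for tested genes with curcumin, sulforaphane or the combination against control, with filled dots for an adjusted p under 0.05. The gene ins-7 lies at -1.71 with curcumin and -1.51 with the combination, ins-19 at -1.51 with sulforaphane and -1.71 with the combination, and intervals widen for peptide genes with few reads.

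Among the ligands the change with curcumin fell on ins-7, a ligand gene known to be active in the intestine and to be repressed by DAF-16. The gene lies on chromosome IV at 9682011 to 9682845 of WBcel235, on the minus strand, with 4 exons and no overlapping gene. Its level in CPM, the reads of a gene as a share of the scaled library, was 87.0, 86.6, 89.7 and 78.8 in the control libraries. It was 30.6, 24.9, 23.9 and 24.9 CPM with curcumin, 65.6, 77.0, 84.7 and 81.3 CPM with sulforaphane, and 24.4, 20.8, 43.3 and 31.8 CPM with the combination. Every library that received curcumin, alone or combined, was below every library that did not. Levels were 3.27-fold lower with curcumin (log2 change -1.71 ± 0.14 SE, adjusted p = 1.8e-09, edgeR) and 2.84-fold lower with the combination (-1.51 ± 0.14 SE, adjusted p = 8.7e-09, edgeR). With sulforaphane alone the log2 change was -0.15 ± 0.13 SE and was not called (adjusted p = 0.62, edgeR; 95% interval -0.43 to 0.13). The curcumin and sulforaphane groups themselves differed by 2.95-fold (log2 -1.56 ± 0.14 SE, adjusted p = 5.6e-09, edgeR), and the combination and curcumin groups were not told apart (log2 0.20, 95% interval -0.10 to 0.50, adjusted p = 0.53, edgeR).

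A fall with sulforaphane, and not with curcumin alone, was seen for ins-19, an insulin-like peptide gene on chromosome II (3126037 to 3126441, minus strand, 2 exons). Its control level was 9.42, 6.73, 7.80 and 8.48 CPM, and with curcumin 6.42, 8.27, 8.05 and 7.01 CPM. With sulforaphane it was 3.18, 2.34, 3.15 and 2.70 CPM, and with the combination 2.18, 2.06, 3.05 and 2.60 CPM. All 8 libraries given sulforaphane lay below all 8 without it. The level was 2.85-fold lower with sulforaphane (log2 -1.51 ± 0.16 SE, adjusted p = 5.4e-07, edgeR) and 3.27-fold lower with the combination (log2 -1.71 ± 0.17 SE, adjusted p = 1.7e-08, edgeR). It was also 2.99-fold lower in the combination than with curcumin (adjusted p = 3e-07, edgeR) and 2.61-fold higher with curcumin than with sulforaphane (adjusted p = 5e-07, edgeR). Curcumin alone gave a log2 change of -0.13 ± 0.15 SE, which was not called (95% interval -0.44 to 0.18, adjusted p = 0.68, edgeR).

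A neuronal ligand gene, ins-6, whose product activates DAF-2 and helps larvae leave the dauer stage, was also lower with sulforaphane. Its levels were 9.74, 7.40, 10.0 and 9.18 CPM in the control libraries and 7.14, 5.91, 5.52 and 5.41 CPM with sulforaphane, with no overlap. With curcumin they were 8.45, 10.0, 7.42 and 8.45 CPM, and with the combination 8.11, 9.26, 7.04 and 5.57 CPM, which overlaps both the control and the sulforaphane libraries. The fall with sulforaphane was 1.52-fold (log2 -0.60 ± 0.15 SE, adjusted p = 0.015, edgeR), and the level was 1.43-fold higher with curcumin than with sulforaphane (adjusted p = 0.018, edgeR). Without control replicate 3, sulforaphane replicate 3 or sulforaphane replicate 4 the fall was no longer called (log2 -0.53, -0.57 and -0.53, adjusted p = 0.060, 0.053 and 0.058, edgeR). Without curcumin replicate 2, sulforaphane replicate 3 or sulforaphane replicate 4 the difference from curcumin was not called either (log2 0.44, 0.48 and 0.47, adjusted p = 0.072, 0.059 and 0.059, edgeR).

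The gene ins-5, which begins 548 bases after ins-4 in the same stretch of chromosome II and ends 1413 bases before ins-6, was lower with the combination. Its levels were 3.03, 3.27, 2.0 and 3.00 CPM in control and 1.62, 1.51, 1.56 and 1.33 CPM with the combination, so these groups did not overlap. With curcumin they were 1.72, 3.86, 2.35 and 2.01 CPM, and with sulforaphane 2.12, 1.49, 0.964 and 1.76 CPM. The combination was 1.87-fold lower than control (log2 -0.90 ± 0.28 SE, adjusted p = 0.020, edgeR). Without control replicate 2 the log2 change was -0.84 and without combination replicate 4 it was -0.85, neither of them called (adjusted p = 0.053 and 0.051, edgeR). Sulforaphane alone gave a log2 change of -0.83 ± 0.28 SE that was not called (adjusted p = 0.077, edgeR). The immediate neighbour ins-4, whose product is another activating ligand, gave log2 changes of 0.06, -0.17 and 0.18 with curcumin, sulforaphane and the combination, none of them called.

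Another pair of ligand genes, daf-28 and ins-3, differed between the fed groups but in no comparison with control. The gene daf-28 encodes a neuronal activating ligand that holds larvae out of the dauer stage. Its levels were 7.84, 7.06, 8.30 and 8.67 CPM in control, 8.24, 9.96, 9.45 and 11.4 with curcumin, 5.73, 8.96, 6.36 and 6.54 with sulforaphane, and 9.73, 12.8, 8.74 and 10.1 CPM with the combination. All combination libraries were above all controls, but that difference was not called (log2 0.37 ± 0.15 SE, adjusted p = 0.067, edgeR). Sulforaphane replicate 2, at 8.96 CPM, overlaps the lowest combination and curcumin libraries, while the other 3 sulforaphane libraries lie below both groups. The level was 1.5-fold higher in the combination than with sulforaphane (log2 0.58 ± 0.15 SE, adjusted p = 0.0060, edgeR) and 1.41-fold higher with curcumin than with sulforaphane (log2 0.50 ± 0.15 SE, adjusted p = 0.019, edgeR). The latter was not called without curcumin replicate 4 or without sulforaphane replicate 1, 3 or 4 (log2 0.39, 0.42, 0.46 and 0.47, adjusted p = 0.096, 0.075, 0.061 and 0.056, edgeR).

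For ins-3 the counts were low, between 13 and 70 reads per library. Its levels were 1.90, 1.53, 2.0 and 2.87 CPM in control, 3.24, 2.30, 1.90 and 2.82 with curcumin, 1.63, 0.844, 1.99 and 1.13 with sulforaphane, and 4.37, 2.74, 3.18 and 2.0 CPM with the combination. The combination and sulforaphane libraries came close, at 2.0 and 1.99 CPM, but did not overlap. The difference between them was 2.19-fold (log2 1.13 ± 0.29 SE, adjusted p = 0.0069, edgeR), and that between curcumin and sulforaphane 1.84-fold (log2 0.88 ± 0.30 SE, adjusted p = 0.039, edgeR). The latter was lost without curcumin replicate 1, 2 or 4 (log2 0.75, 0.93 and 0.82, adjusted p = 0.13, 0.051 and 0.092, edgeR). It was also lost without sulforaphane replicate 1, 2 or 4 (log2 0.96, 0.70 and 0.79, adjusted p = 0.051, 0.14 and 0.11, edgeR).

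**Figure D3:**
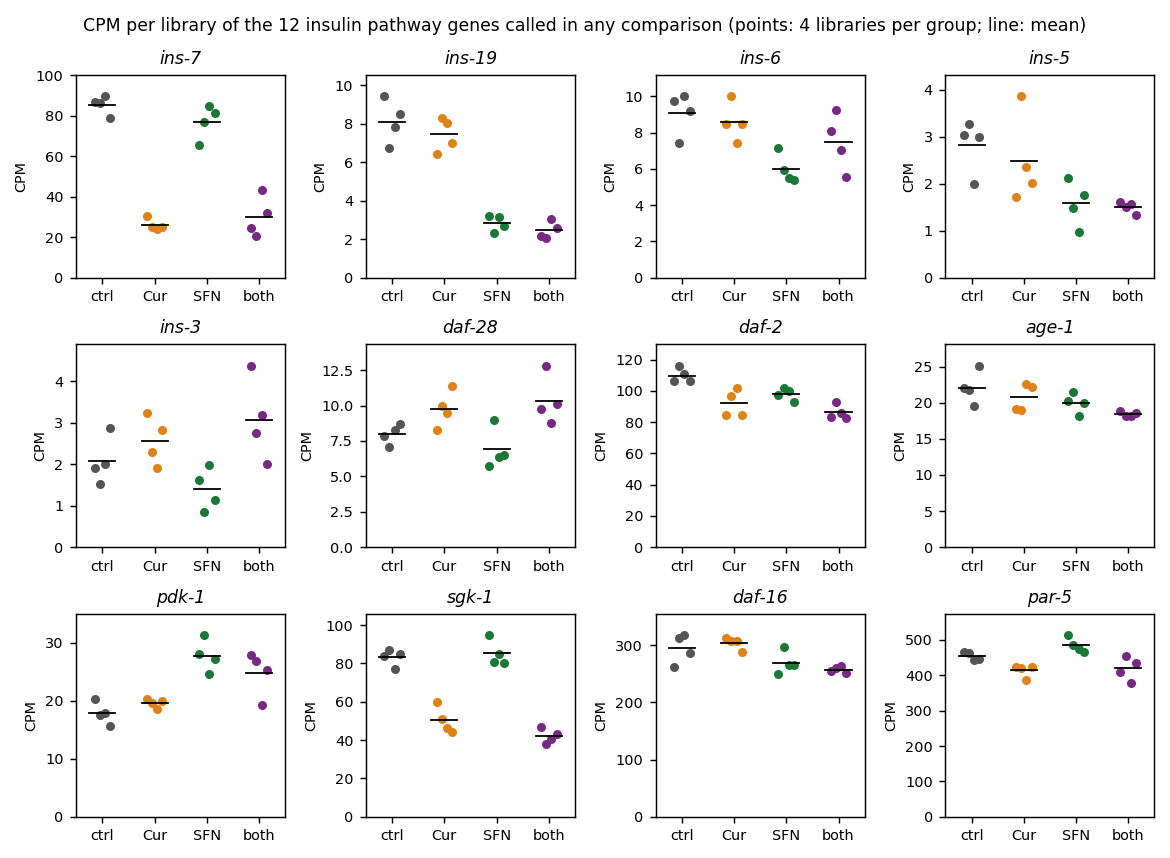
CPM in each of the 4 libraries per group (points) and their mean (lines) for the 12 genes called in at least 1 comparison, on linear axes from 0; ctrl is the untreated control, Cur curcumin, SFN sulforaphane and both the combination. The levels of ins-7 and sgk-1 separate the libraries with curcumin from those without, ins-19 separates those with sulforaphane from those without, and the differences of age-1, daf-16 and par-5 are small beside their levels.

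The other 19 tested peptide genes were called in none of the 7 comparisons: ins-1, ins-4, ins-9, ins-10, ins-16, ins-17, ins-18, ins-22, ins-23, ins-24, ins-26, ins-27, ins-28, ins-29, ins-30, ins-32, ins-33, ins-35 and ins-37. The antagonist gene ins-18 had log2 changes of 0.06, -0.23 and -0.04 with curcumin, sulforaphane and the combination. For ins-1, whose product also blocks DAF-2, they were -0.01, -0.46 and -0.24. For the well-counted ins-17 and ins-27 they were -0.06, -0.17 and -0.11, and -0.01, -0.20 and -0.37. Larger values occurred in genes with few reads, in both directions. For ins-23 the sulforaphane libraries, at 0.283, 0.13, 0.578 and 0.377 CPM, were all below the controls at 1.26, 0.866, 0.749 and 0.765 CPM. For ins-32 the curcumin libraries, at 0.708, 0.678, 0.761 and 0.862 CPM, were all above the controls at 0.253, 0.2, 0.562 and 0.638 CPM. Neither was called in the main test, and ins-32 was called by limma on FPKM with a pseudocount of 1. The combination libraries of ins-35, at 0.873, 1.65, 1.22 and 0.969 CPM, were all above the controls at 0.0632, 0.800, 0.624 and 0.638 CPM, with a log2 change of 1.13 ± 0.43 SE that was not called (adjusted p = 0.061, edgeR). The same held for ins-33, at 0.749, 1.23, 1.08 and 0.787 CPM against 0.632, 0, 0.187 and 0.446 CPM (log2 1.57 ± 0.59 SE, adjusted p = 0.057, edgeR). Under the 16 alternatives ins-35 was called higher in 5 (adjusted p from 0.016 to 0.19) and ins-33 in 7 (adjusted p from 0.024 to 0.15), the DESeq2 test and both limma fits on FPKM among them for both genes.

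With sulforaphane, 21 of the 25 tested peptide genes had a negative log2 change, with a median of -0.21, where the median of all tested genes was -0.02 and 7736 of 14328 were negative. With curcumin 13 of 25 were negative (median -0.01, all genes -0.01), and with the combination 16 of 25 (median -0.11, all genes -0.02). Of those negative values, ins-7 was called with curcumin, ins-19 and ins-6 with sulforaphane, and ins-7, ins-19 and ins-5 with the combination.

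The summed level of the 40 peptide genes was lower than control in all 3 fed groups. It was 172 ± 10.0 CPM in control, 115 ± 6.03 with curcumin, 145 ± 7.54 with sulforaphane and 110 ± 9.21 CPM with the combination (SD, n = 4). The gene ins-7 made up 49.9% ± 3.5 of the peptide reads in control and 53.2% ± 3.38 with sulforaphane, against 22.7% ± 2.46 with curcumin and 27.1% ± 6.83 when both were given (SD, n = 4). The other 39 genes together gave 86.2 ± 9.79 CPM in control, 89.1 ± 5.73 with curcumin, 67.6 ± 2.78 with sulforaphane and 79.7 ± 4.15 CPM with the combination (SD, n = 4). For these 39 the sulforaphane libraries (64.7 to 70.5 CPM) lay below all control libraries (73.0 to 96.1 CPM), whereas the curcumin libraries (82.5 to 95.3 CPM) lay within the control range. Most of the lower sum with curcumin thus lay in ins-7, which went from 85.5 to 26.1 CPM, and most of the lower sum with sulforaphane in the other 39 genes. No test was made of these sums.

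**Figure D4:**
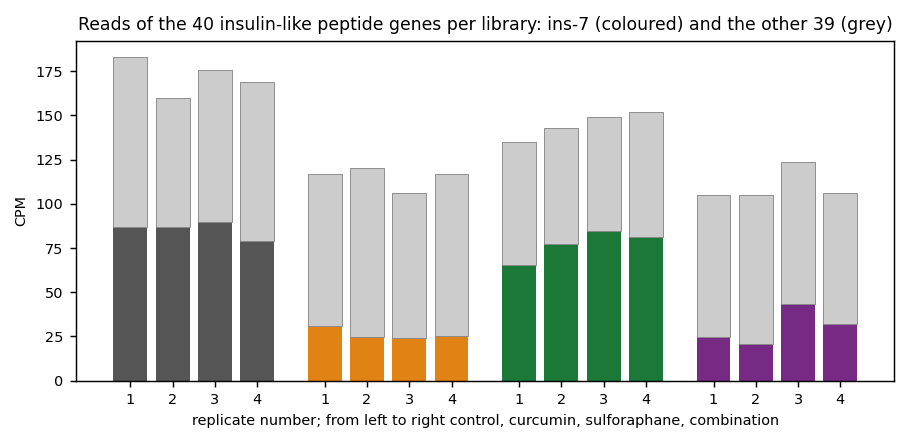
CPM of ins-7 (coloured) and of the other 39 insulin-like peptide genes together (grey) in each of the 16 libraries, as stacked bars from 0. The coloured parts are 20.8 to 43.3 CPM in the 8 libraries given curcumin and 65.6 to 89.7 CPM in the other 8, while the grey parts are lowest in the sulforaphane libraries.

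Downstream of the ligands, the receptor gene daf-2 (chromosome III, 2994514 to 3040846, minus strand) was lower with curcumin and with the combination. Its levels were 106, 116, 111 and 106 CPM in control, 84.8, 96.7, 102 and 84.6 with curcumin, 97.1, 102, 99.8 and 93.0 with sulforaphane, and 83.4, 92.7, 85.9 and 82.8 CPM with the combination. All 4 control libraries were above all 12 others. The level was 1.19-fold lower with curcumin (log2 -0.25 ± 0.07 SE, adjusted p = 0.011, edgeR) and 1.27-fold lower with the combination (log2 -0.35 ± 0.07 SE, adjusted p = 0.00037, edgeR). Sulforaphane alone gave a log2 change of -0.16 ± 0.07 SE that was not called (95% interval -0.30 to -0.02, adjusted p = 0.18, edgeR), and curcumin and sulforaphane were not told apart (log2 -0.09, adjusted p = 0.44, edgeR). The curcumin change was -0.22 and not called without curcumin replicate 4 (adjusted p = 0.052, edgeR), and it was not called by limma on FPKM with a pseudocount of 1 (log2 -0.22, adjusted p = 0.053) or 0.1 (log2 -0.24, adjusted p = 0.051).

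The PI3-kinase gene age-1 was at 22.1, 21.7, 19.5 and 25.1 CPM in control and at 18.8, 18.2, 18.1 and 18.6 CPM with the combination, with no overlap. With curcumin it was at 19.1, 19, 22.6 and 22.2 CPM and with sulforaphane at 20.2, 21.5, 18.2 and 19.9 CPM. The combination was 1.2-fold lower than control (log2 -0.26 ± 0.09 SE, adjusted p = 0.040, edgeR). That call was lost without control replicate 1 or 4 (log2 -0.27 and -0.20, adjusted p = 0.052 and 0.15, edgeR) and without any 1 of the combination replicates 1 to 4 (log2 -0.28, -0.26, -0.27 and -0.26, adjusted p = 0.060, 0.081, 0.056 and 0.065, edgeR). It was lost as well when every gene with a read was tested (adjusted p = 0.092, edgeR), when only these groups were fitted (adjusted p = 0.062, edgeR) and by limma on FPKM with either pseudocount (adjusted p = 0.12). The adaptor genes aap-1 and ist-1 were called in no comparison, with log2 changes against control of 0.09, -0.05 and 0.11 for aap-1 and of 0.06, -0.22 and -0.07 for ist-1 with curcumin, sulforaphane and the combination.

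The kinase gene pdk-1, whose product phosphorylates AKT-1, AKT-2 and SGK-1, was the one member called higher than control. Its levels were 20.3, 17.6, 17.9 and 15.6 CPM in control, 20.3, 19.7, 18.6 and 19.9 with curcumin, 28.1, 31.3, 24.7 and 27.2 with sulforaphane, and 27.9, 26.9, 19.2 and 25.4 CPM with the combination. The sulforaphane libraries lay above all control and curcumin libraries, and combination replicate 3 alone of its group overlapped the controls. The rise was 1.56-fold with sulforaphane (log2 0.64 ± 0.11 SE, adjusted p = 0.00023, edgeR) and 1.39-fold with the combination (log2 0.48 ± 0.11 SE, adjusted p = 0.0015, edgeR). With curcumin the level was 1.42-fold lower than with sulforaphane (log2 -0.50 ± 0.11 SE, adjusted p = 0.0010, edgeR) and was not told apart from control (log2 0.14, 95% interval -0.08 to 0.36, adjusted p = 0.50, edgeR).

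The kinase gene sgk-1 (chromosome X, 16254843 to 16262122, minus strand, with no overlapping gene) fell wherever curcumin was given. Its product acts beside the AKT kinases and also downstream of the TORC2 complex. Levels were 83.8, 87.2, 77.2 and 84.8 CPM in control, 59.8, 50.8, 46.5 and 44.0 with curcumin, 94.6, 80.8, 85.0 and 80.3 with sulforaphane, and 46.9, 38.0, 40.7 and 43.0 CPM with the combination. All 8 libraries with curcumin were below all 8 without it. The fall was 1.65-fold with curcumin (log2 -0.73 ± 0.09 SE, adjusted p = 7e-07, edgeR) and 1.97-fold with the combination (log2 -0.98 ± 0.09 SE, adjusted p = 3.6e-09, edgeR). The combination and curcumin groups differed by -0.25 on the log2 scale, which was not called (95% interval -0.44 to -0.07, adjusted p = 0.089, edgeR). That difference was called with library size alone, when every gene with a read was tested, and with the replicate block. It was also called without curcumin replicate 4 and without combination replicate 1. Against sulforaphane the level was 1.69-fold lower with curcumin (adjusted p = 2.4e-07, edgeR) and 2.02-fold lower with the combination (adjusted p = 2.4e-09, edgeR).

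The AKT genes were not called in the main test. The level of akt-1 was 52.6 ± 7.39 FPKM in control, 46.8 ± 7.48 with curcumin, 50.9 ± 3.81 with sulforaphane and 43.8 ± 7.44 FPKM in the combination group (SD, n = 4), and the libraries of each group overlapped those of the others. For akt-1 the log2 changes were -0.18, -0.06 and -0.27 with curcumin, sulforaphane and the combination, the last with an adjusted p of 0.091 (edgeR). The combination change was called lower under 5 of 16 alternatives, with adjusted p-values over the 16 from 0.00064 to 0.25. The gene shares 8 exonic bases with rop-1 on the other strand, which had 44374 reads against 28246 for akt-1. For akt-2 they were -0.04, 0.02 and -0.13.

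The FOXO gene daf-16 (chromosome I, 10750498 to 10776703, plus strand) was at 262, 312, 317 and 286 CPM in control and at 313, 307, 307 and 288 CPM with curcumin. With sulforaphane it was at 250, 296, 266 and 265 CPM, and with the combination at 255, 260, 263 and 251 CPM. The combination libraries lay below all curcumin libraries and overlapped the lowest control. The level was 1.14-fold lower in the combination than in control (log2 -0.19 ± 0.07 SE, adjusted p = 0.036, edgeR) and 1.18-fold lower than with curcumin (log2 -0.24 ± 0.07 SE, adjusted p = 0.024, edgeR). The change from control was lost without control replicate 2 or 3 (log2 -0.17 and -0.16, adjusted p = 0.087 and 0.13, edgeR), without combination replicate 1, 2 or 4 (log2 -0.19, -0.20 and -0.18, adjusted p = 0.065, 0.052 and 0.082, edgeR), and under 4 of the other 8 alternatives, with adjusted p-values from 0.050 to 0.061. The change from curcumin was lost without combination replicate 1 or 4 (log2 -0.24 and -0.23, adjusted p = 0.052 and 0.064, edgeR).

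Of the 14-3-3 genes, par-5 was at 467, 462, 442 and 447 CPM in control, 424, 422, 387 and 423 with curcumin, 513, 486, 475 and 467 with sulforaphane, and 410, 456, 379 and 436 CPM with the combination. All curcumin and combination libraries were below all sulforaphane libraries. The level was 1.17-fold lower with curcumin than with sulforaphane (log2 -0.23 ± 0.06 SE, adjusted p = 0.0091, edgeR) and 1.15-fold lower in the combination than with sulforaphane (log2 -0.21 ± 0.06 SE, adjusted p = 0.018, edgeR). The latter was -0.18 and not called without sulforaphane replicate 1 (adjusted p = 0.072, edgeR). No comparison of par-5 with control was called, with log2 changes of -0.13, 0.09 and -0.11 with curcumin, sulforaphane and the combination. All curcumin libraries lay below all controls (95% interval -0.26 to -0.008, adjusted p = 0.17, edgeR). The combination change was called under 1 of 16 alternatives, library size alone (adjusted p = 0.030, edgeR). The gene ftt-2 was called in no comparison, with log2 changes of 0.05, 0.14 and 0.06 against control. The genes par-5 and ftt-2 are close paralogues, and how reads that match both were counted is not given in the sources used here, so the division of reads between them is uncertain.

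Whether the combination departed from the sum of the separate log2 changes was asked by a further contrast, the interaction. No member was called by edgeR, against 0.991% of all tested genes (0.377% higher and 0.614% lower). The gene sgk-1 was the 1 member with an unadjusted p under 0.05 (log2 -0.29 ± 0.12 SE, adjusted p = 0.45, edgeR), and the DESeq2 test called 0 as well. For ins-7 the departure was 0.35 (95% interval -0.06 to 0.76), for ins-19 -0.07 (-0.56 to 0.42) and for pdk-1 -0.30 (-0.61 to 0.01), so departures of moderate size remain within these intervals.

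By position, the peptide genes were grouped on the chromosomes, with 16 on II and 10 on I, 5 on III, 4 on IV, 3 on V and 2 on X. Differences between neighbouring genes were not tested. Beside ins-19, ins-31 begins 599 bases away and had 13 reads in all 16 libraries. Beside ins-7, ins-8 lies 1069 bases away and had 21 reads in the control libraries together, 10 with curcumin, 7 with sulforaphane and 1 when both were given. It was too low for the main test, and when every gene with a read was tested it was called lower with the combination (adjusted p = 0.017, edgeR) and not with curcumin (adjusted p = 0.63, edgeR). In the stretch of ins-2 to ins-6 on chromosome II, ins-5 was called lower with the combination (log2 -0.90, and -0.83 with sulforaphane, not called), ins-6 lower with sulforaphane (log2 -0.60), and ins-3 in no comparison with control. The genes ins-24 to ins-30 on chromosome I, in which 6 were tested, were called in none. Of the tested peptide genes, ins-10 shares 74 exonic bases with the far more abundant vps-39 on the other strand (1049 against 11613 reads). The strandedness of the counting is not stated, so reads in that stretch cannot be told apart. Of the pathway genes, aap-1 shares 136 exonic bases with Y110A7A.21 on the other strand (4240 against 3667 reads).

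Other regulators of the pathway were taken from a list of 25 genes, 21 of them tested. With curcumin 0 were higher and 3 lower, and with sulforaphane 1 was higher and 0 lower. With the combination 0 were higher and 4 lower. These called genes are 14.3%, 4.76% and 19% of the 21, beside 14.6%, 6.71% and 23.1% of all tested genes. The gene higher with sulforaphane was skn-1, a stress-response transcription factor (log2 0.28, adjusted p = 0.0061, edgeR). It was called lower with curcumin (log2 -0.19, adjusted p = 0.049, edgeR) and not called with the combination (log2 0.13, adjusted p = 0.17, edgeR). The medians of the 21 log2 changes were -0.04, -0.00 and -0.10. The largest change among them was in pqm-1, a zinc-finger transcription factor that acts on DAF-16-repressed genes. Its level was 127 ± 8.56 CPM in control, 76.7 ± 8.11 with curcumin, 110 ± 3.43 with sulforaphane and 53.3 ± 2.04 CPM in the combination group (SD, n = 4). The log2 change was -0.73 ± 0.07 SE with curcumin (adjusted p = 2.5e-08, edgeR) and -1.25 ± 0.07 SE with the combination (adjusted p = 1e-12, edgeR). With the combination smk-1, a DAF-16 cofactor, pptr-1, a PP2A subunit that acts on AKT-1, and prmt-1, a methyltransferase for DAF-16, also fell, by 0.18, 0.19 and 0.27 on the log2 scale (adjusted p = 0.027, 0.039 and 0.049, edgeR).

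Of 12 genes for the processing and secretion of peptide hormones, all were tested. The proprotein convertase gene kpc-1 was the single one called with curcumin (log2 -0.24 ± 0.08 SE, adjusted p = 0.038, edgeR), and none was called with sulforaphane. With the combination kpc-1 fell (log2 -0.40 ± 0.08 SE, adjusted p = 0.00054, edgeR) and the vesicle gene snb-1, a synaptobrevin, rose (log2 0.25 ± 0.06 SE, adjusted p = 0.0034, edgeR). The shares called were 8.33%, 0% and 16.7%, beside 14.6%, 6.71% and 23.1% of all tested genes. The list medians were 0.04, 0.01 and 0.03, beside -0.01, -0.02 and -0.02 for all tested genes.

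Genes known as targets of DAF-16 were described as class 1, which are higher when insulin signalling is low, and class 2, which are lower. Of 21 tested class 1 genes, 5 were higher and 2 lower with curcumin, 1 higher and 6 lower with sulforaphane, and 6 higher and 5 lower with the combination, with median log2 changes of 0.16, -0.01 and 0.08. The shares called were 33.3%, 33.3% and 52.4%, beside 14.6%, 6.71% and 23.1% of all tested genes, and genes were called in both directions. The superoxide dismutase gene sod-3 rose in all 3 comparisons (log2 0.47 ± 0.12, 0.55 ± 0.12 and 0.81 ± 0.12 SE, adjusted p = 0.0058, 0.0036 and 6.8e-06, edgeR). The ferritin gene ftn-1 rose with curcumin and the combination and fell with sulforaphane (log2 1.2 ± 0.10, 1.26 ± 0.10 and -0.56 ± 0.10 SE, adjusted p = 9.3e-10, 2.2e-10 and 0.00032, edgeR). The lysozyme gene lys-7 fell with curcumin, sulforaphane and the combination (log2 -0.62 ± 0.06, -0.27 ± 0.06 and -1.54 ± 0.06 SE, adjusted p = 5.5e-08, 0.0064 and 2.3e-15, edgeR). The cytochrome P450 gene cyp-34A9 also fell in all 3 (log2 -0.40, -0.38 and -0.73), and dod-6 was called in 1 of the 3, the combination (log2 -0.68 ± 0.08 SE, adjusted p = 1.9e-07, edgeR).

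Of 11 tested class 2 genes, 1 was higher and 7 lower with curcumin (median log2 change -1.40), 2 were higher and 0 lower with sulforaphane (median 0.08), and 1 was higher and 6 lower with the combination (median -0.84). The shares called were 72.7%, 18.2% and 63.6%, beside the same background. The 7 genes lower with curcumin were dod-17, dod-19, dod-20, dod-21, dod-22, dod-23 and dod-24, named for lying downstream of DAF-16. The higher gene with curcumin and with the combination was the vitellogenin gene vit-5 (log2 0.34 and 0.39). The 2 genes higher with sulforaphane were dod-21 and dod-17. For dod-17 the log2 change was 1.79 with sulforaphane (adjusted p = 7.8e-09, edgeR), -1.41 with curcumin and -0.08, not called, with the combination. The gene dod-21 had 13.1 ± 4.06 CPM in control, 0.500 ± 0.172 with curcumin, 21 ± 1.71 with sulforaphane and 0.337 ± 0.160 CPM in the combination group (SD, n = 4). Its log2 change was -4.65 ± 0.25 SE with curcumin and -5.24 ± 0.28 SE with the combination (adjusted p = 5.9e-13 and 2e-13, edgeR), and 0.68 ± 0.16 SE with sulforaphane (adjusted p = 0.0087, edgeR). For dod-19 the changes with curcumin and the combination were -1.71 and -2.23, for dod-22 -2.95 and -3.72, for dod-23 -0.68 and -0.84, and for dod-24 -1.40 and -2.36. These lists were drawn up with earlier results of these data known, so their counts are a description.

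**Figure D5:**
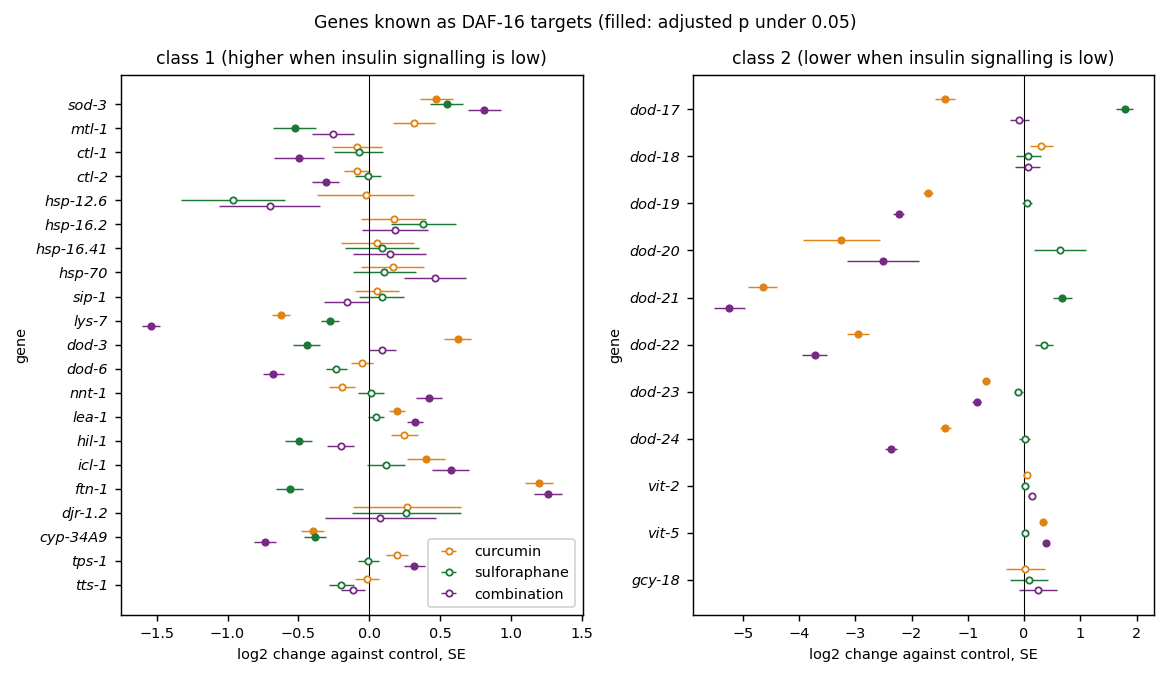
Log2 change against control (dots) with its SE (lines) for tested class 1 (left) and class 2 (right) target genes of DAF-16, with filled dots for an adjusted p under 0.05; the axes of the panels differ. In class 2, dod-19 to dod-24 lie between -5.24 and -0.68 with curcumin and the combination and between -0.10 and 0.68 with sulforaphane. Of the others, dod-17 lies at -1.41, 1.79 and -0.08 with curcumin, sulforaphane and the combination, and vit-5 at 0.34, 0.02 and 0.39. The rest of class 2 lie above 0 and are not called. Class 1 genes lie on both sides of 0.

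Markers of tissues moved with some of these results. Of 8 intestinal marker genes, 7 were called with curcumin, 6 lower (among them ges-1, act-5 and ifb-2) and cpr-1 higher. Sulforaphane called 1 of the 8, higher, and the combination called all 8, 7 lower and cpr-1 higher. The shares called with curcumin, sulforaphane and the combination were 87.5%, 12.5% and 100%, beside 14.6%, 6.71% and 23.1% of all tested genes. Their summed level was 1530 to 1760 CPM in control, 2859 to 3466 with curcumin, 1558 to 1781 with sulforaphane and 2489 to 3443 CPM with the combination. Without cpr-1, left out after its values were seen, the sums of the other 7 were 1123 to 1243 CPM in control, 801 to 878 with curcumin, 1257 to 1401 with sulforaphane and 718 to 780 CPM with the combination. The groups in which ins-7, sgk-1 and daf-2 were called lower had lower sums of these 7 markers but higher sums of all 8. With sulforaphane daf-2 also lay below all control libraries, though not called, while the sums of the 7 lay above those of control. The part of the intestine in these falls was not tested.

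Of 10 neuronal markers, 0 were called with curcumin, 0 with sulforaphane and 1, lower, with the combination, and their summed level was 225 to 252 CPM in control, 250 to 261 with curcumin, 207 to 239 with sulforaphane and 243 to 269 CPM with the combination. The gene ins-19 was lower in both of the last groups, and in the combination the neuronal sums overlapped those of control and reached higher. Of 6 body-wall muscle markers, 1, 0 and 5 were called, all higher, with sums of 1907 to 2187 CPM in control and 2165 to 2964 with the combination. Of 6 hypodermal markers 3 were tested, of which 1, 0 and 1 were called, higher, with sums of 82.5 to 138 CPM over all libraries. Germline and oocyte markers were present in these sterile worms, none at 0, with summed levels of 297 to 443 CPM over the 16 libraries; 1, 0 and 1 of 12 were called, higher. With curcumin, sulforaphane and the combination, the shares called were 0%, 0% and 10% of the neuronal markers and 16.7%, 0% and 83.3% of the muscle markers. They were 33.3%, 0% and 33.3% of the tested hypodermal markers and 8.33%, 0% and 8.33% of the germline and oocyte markers. The shares of all tested genes were 14.6%, 6.71% and 23.1%. The part of these tissues in the results was not tested.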

How the data were processed

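Gene-level raw counts and, in a second file, FPKM values were deposited by the authors for each library, and both were used unchanged. The submitters' processing notes name HISAT2 2.0.5, StringTie 1.3.3b, featureCounts 1.5.0-p3, DESeq2 1.20.0 and build WBcel235; whether counting used strand is not given in the sources used here. In every library the deposited FPKM equalled the count divided by gene length and by 1 depth, within 0.1% for genes of at least 100 counts. Coordinates are 1-based, on WBcel235, as in the deposited table; exons are from the Ensembl annotation of that build. Start and end equalled RefSeq's for 49 of the 52 members.

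Counts were scaled by TMM and tested by quasi-likelihood in edgeR 4.0.16 (R 4.3.3) with all 16 libraries in 1 fit, a mean per group, and two-sided tests adjusted by Benjamini-Hochberg over the 14328 genes that passed filterByExpr (minimum count 10, minimum total 15). Members that did not pass could not be called. SE is the log2 change divided by the square root of F, and intervals are 95%. FPKM was tested only as an alternative, as log2(FPKM + 1) and log2(FPKM + 0.1) in limma 3.58.1, a scale that understates changes of low genes. Other alternatives were DESeq2 1.42.0 size factors and its Wald test, library size alone, no filter beyond 1 read, only the groups compared, the replicate number as a block, and each library left out in turn. The code was checked on simulated counts. Floors and count limits cover counting error only.

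The members, the lists of regulators, hormone processing genes, DAF-16 targets and tissue markers, and the rule for named genes were chosen with earlier results of these data known. The rule names every member, gives each library's value for those called in any comparison, and gives values for at most 5 called genes of each list, by adjusted p in the comparison with control that called most of it. The genes ins-33, ins-35, skn-1, vit-5, cpr-1 and the other markers named, and dod-17 and dod-20, fall outside it. They were named after their values were seen, as were the library values given for ins-23 and ins-32. No sequence is shown. The result for 1 tested member is not reported here.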

Additional observations from a re-analysis of the deposited data

Results flagged for a closer look

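In 48 groups of 4 libraries (each of the 12 genes called in any comparison, in each treatment group), the highest or lowest library was compared with the rest by Dixon's criterion, which flags about 1 in 20 groups by chance. It flagged 2. For par-5, curcumin replicate 3 stood at 387 CPM while the other 3 curcumin libraries stood at 422 to 424 CPM, a gap of 0.959 of the group's range. For ins-7, curcumin replicate 1 stood at 30.6 CPM while the others stood at 23.9 to 24.9 CPM, a gap of 0.846 of the range, and it remained far below the control libraries.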

How the results depend on the processing

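The 29 called log2 changes of single members kept their direction under each of the 464 alternative fits of them, and 421 of these also kept the call; 19 of the 29 kept it under every alternative, among them all those of ins-7, ins-19, sgk-1 and pdk-1. The number of members called with the combination against control was 8, and 5 to 9 when 1 library was left out, with 5 without combination replicate 4, when age-1, daf-16 and ins-5 were lost. For the combination against curcumin it was 2, and 1 to 3 with 1 library left out (1 without combination replicate 4, when daf-16 was lost), and 4 when every gene with a read was tested. For curcumin against sulforaphane it was 8, and 5 to 8 with 1 library left out, with 5 without sulforaphane replicate 4, when daf-28, ins-3 and ins-6 were lost. Over all tested genes the interaction called 142, against 352 with every gene with a read tested and 224 by DESeq2. With the DESeq2 size factors or library size alone, the median log2 change of all genes moved by less than 0.05 in each comparison with control.

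Replicates carry the same numbers 1 to 4 in every group. The deviations of same-numbered libraries from their group means correlated with a mean r of 0.109 over 24 pairs (0.00708 to 0.210, 12 of them over 0.1). The 72 pairs of different number had a mean r of -0.0364. Deviations sum to 0 within a group, so this negative mean follows from the positive one and is no separate evidence. Of 16 libraries, 14 correlated best with their own number. The labels do not say that a number marks shared handling. With the replicate block, 13 members were called with the combination against control (akt-1, daf-28, ins-16, ins-33 and ins-35 were added) and 4 in the combination against curcumin (pdk-1 and sgk-1 were added). It also added akt-1 with curcumin against control (adjusted p = 0.029, edgeR), ins-5 with sulforaphane against control, akt-1 and daf-2 in the combination against sulforaphane, and daf-16 and ist-1 in curcumin against sulforaphane. Over all genes the block called 1469 with sulforaphane against 961 without it, and 318 in the interaction.

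Low counts limit the peptide genes: 17 of the 25 tested averaged under 50 reads per control library, and their 95% intervals were wide.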
